A study of Caenorhabditis elegans with 6 samples.

Results

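A total of 77 genes known only by a sequence name in the deposited tables were higher in both mutant strains than in Wild-type (WT) worms. These genes were chosen by their measured values. The values are RPKM, reads scaled to the length of the transcript and to the mapped reads of the library. The lowest of the 4 mutant values of each was at least 3 and at least 1.5 times the higher of the 2 WT values. A gene was to be left out if its lower daf-2(-) value was at least 4 times both double mutant values, and 0 genes met this condition. The joined tables held 20661 entries, of which 11512 had a name without a hyphen, the form of a sequence name in Caenorhabditis elegans. The 77 members were 0.669% of these 11512, and 43 of the 9149 hyphenated names, 0.47%, passed the same thresholds.

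The study compared RNA from WT (N2), daf-2(-) carrying the e1370 allele, and daf-16(-);daf-2(-) carrying mgDf50 together with e1370, called the double mutant here. Both mutant strains share e1370, a reduction-of-function allele of the insulin/IGF-1 receptor gene daf-2, and the double mutant also carries mgDf50, a daf-16 deletion. Each strain had 2 replicates from mixed-stage cultures kept at 20 °C on OP50 bacteria, without a named age. The labels do not say whether the replicates were separate cultures, so the p-values measure only the spread between these samples. Whole worms of mixed stages were used, so more cells of a type and more RNA per cell cannot be told apart.

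The insulin/IGF-1 pathway of C. elegans controls dauer arrest, stress resistance and lifespan. When the receptor DAF-2 is active, the transcription factor DAF-16/FOXO is held in the cytoplasm, and when signalling is low DAF-16 enters the nucleus and activates its targets. A transcript that depends on DAF-16 is therefore expected to lose its induction in the double mutant, which lacks the factor but keeps the receptor allele. A sequence name combines the cosmid or YAC clone on which a gene was found with a number, and is used until the gene receives a name for its function or family.

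The deposited RPKM of daf-16 was 24.9 and 29.4 in WT and 25.2 and 22.4 in daf-2(-), with 6.44 and 4.6 in the double mutant, lower in both libraries of the strain that carries the deletion. The depth in reads per library, estimated from the steps of the low RPKM values, ranged from 9400000 to 15400000 and was lowest in daf-2(-) replicate 2. Libraries daf-2(-) replicate 2 and double mutant replicate 1 stood apart together. Of 14395 entries with a mean RPKM of at least 1, 73 were at least 2-fold lower and 20 at least 2-fold higher in these 2 libraries than in the other mutant libraries, against 9 and 5 when the replicates were paired by number. Major sperm protein genes such as msp-10 were among them, with 38 and 7.58 RPKM in daf-2(-), against 4.06 and 34.5 in the double mutant. One of the 77 members, F56A4.3, had this pattern.

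The deposited names are older than the current annotation. In the RefSeq annotation of WBcel235, matched by name only because the tables use WS230, 75 of the 77 members were found, and all 75 were protein coding. Of these, 18 now have a symbol of their own and 57 still have none. W02H5.1 and W02H5.9 were not matched. The symbols cover a cuticle collagen (Y69H2.14, col-42), an Argonaute protein of spermatogenesis (T22B3.2, alg-3), a repair factor (H19N07.3, nhj-1) and other families. The 18 members with a symbol therefore did not all belong to a common family. Whether the members without a symbol share a family was not tested.

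The members spanned a wide range of levels. The mean RPKM over the 4 mutant libraries ran from 3.59 to 1452 with a median of 11.1, and it was at least 10 in 44 members, at least 50 in 6 and at least 100 in 3. The median of the WT means was 4.06 RPKM, that of the daf-2(-) means 11.2 and that of the double mutant means 10.6. Summed over the members, the RPKM was 1128 and 885 in WT and 4391 and 4165 in daf-2(-), while the double mutant had 2202 and 2242. Without Y69H2.14, the highest, these sums were 762 and 654 in WT and 2051 and 1860 in daf-2(-), with 1651 and 1629 in the double mutant, so this collagen alone made up most of the gap between the mutant sums.

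The distance from WT was small for most members. The ratio of the daf-2(-) mean to the WT mean had a median of 2.4, and that of the double mutant mean to the WT mean had a median of 2.16. It was at least 2 in 56 members in daf-2(-), in 53 in the double mutant and in 44 in both strains, and under 2 in both strains in 12. The daf-2(-) ratio was at least 5 in 6 members and the double mutant ratio in 4. These ratios describe the selection and were not tested, since the same values chose the genes.

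**Figure D1:**
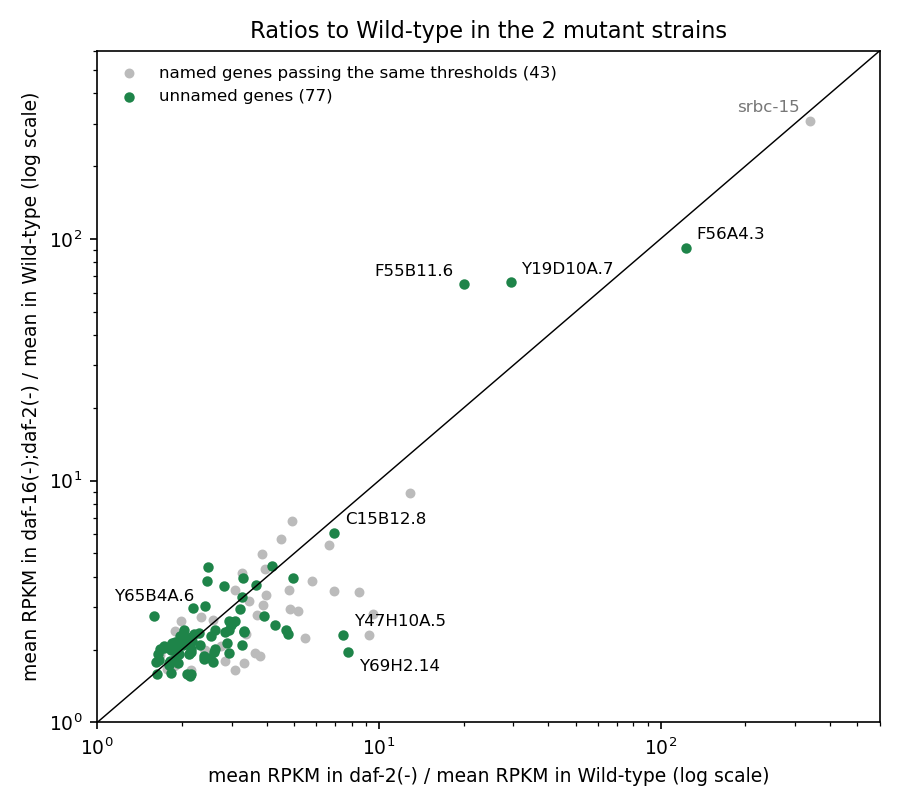
The plot of ratios gives for each gene the mean RPKM in daf-2(-) over the mean in WT (x axis, log scale) and the mean in the double mutant over the mean in WT (y axis, log scale). Green points are the 77 unnamed genes, grey points the 43 named genes that passed the same thresholds, and the line marks equal ratios. The unnamed genes F56A4.3, Y19D10A.7 and F55B11.6 lie far above the other unnamed genes in both directions, the named srbc-15 lies beyond them, and the absence of points near 1 follows from the selection.

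A group of 3 members was close to absent in WT. F56A4.3 had 0.8 and 0 RPKM in WT and 74.4 and 24.2 in daf-2(-), against 24.1 and 49.6 in the double mutant. The WT values correspond to about 6 and 0 reads by the estimated depth. Its mutant libraries overlapped, and those that stood apart, daf-2(-) replicate 2 and double mutant replicate 1, held its lower values. Without these 2 libraries daf-2(-) had 74.4 and the double mutant 49.6.

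Y19D10A.7, now irld-53, belongs to a family named for the L domain of the insulin and EGF receptors. Its RPKM was 0.21 and 0.25 in WT and 8.75 and 4.74 in daf-2(-), while the double mutant had 12.6 and 17.8. The WT values correspond to about 4 reads in each library. All mutant values were far above WT, and both double mutant values were above both daf-2(-) values.

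F55B11.6 had 0.69 and 0 RPKM in WT and 6.67 and 7.15 in daf-2(-), with 28 and 17 in the double mutant. It lies on chromosome IV, and the 4 genes nearest to it in the WBcel235 order did not share the pattern. Its direct neighbour xdh-1 had 17.2 and 15.6 RPKM in WT and 13.7 and 11.3 in daf-2(-), against 24 and 22.6 in the double mutant. F55B11.7 on the other side stayed between 0.54 and 1.66 RPKM in the 6 libraries.

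A further 7 members had the next largest gaps between the higher WT and the lowest mutant value on the scale of log2(RPKM + 1). W02H5.2 had 2.74 and 3.91 RPKM in WT and 11.8 and 12.5 in daf-2(-), while the double mutant had 11.2 and 13.5. C15B12.8, the only matched member on the X chromosome, had 1.71 and 2.17 RPKM in WT and 13 and 14 in daf-2(-), with 6.54 and 17.2 in the double mutant. The mutant strains overlapped for both genes, and the double mutant replicates of C15B12.8 differed more than 2-fold.

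Y71F9AL.4, now the protein phosphatase gene pph-7, had 1.03 and 1.19 RPKM in WT and 4.87 and 4.41 in daf-2(-), against 5.9 and 3.98 in the double mutant. B0024.4 had 7.14 and 4.35 RPKM in WT and 21 and 17 in daf-2(-), while the double mutant had 21.4 and 24. C35E7.6 had 5.05 and 3.38 RPKM in WT and 13.4 and 13.7 in daf-2(-), with 11.9 and 13 in the double mutant. The mutant strains overlapped for pph-7, the double mutant was above daf-2(-) for B0024.4 and below it for C35E7.6, and none of these differences was called.

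T08B6.9 had 2.08 and 1.81 RPKM in WT and 7.37 and 5.34 in daf-2(-), against 6.52 and 6.37 in the double mutant. H19N07.3 had 19.2 and 16.3 RPKM in WT and 91.2 and 74.6 in daf-2(-), while the double mutant had 39.7 and 45.8. H19N07.3 is now nhj-1, a factor of DNA repair by non-homologous end joining, and unlike T08B6.9 its mutant strains did not overlap.

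**Figure D2:**
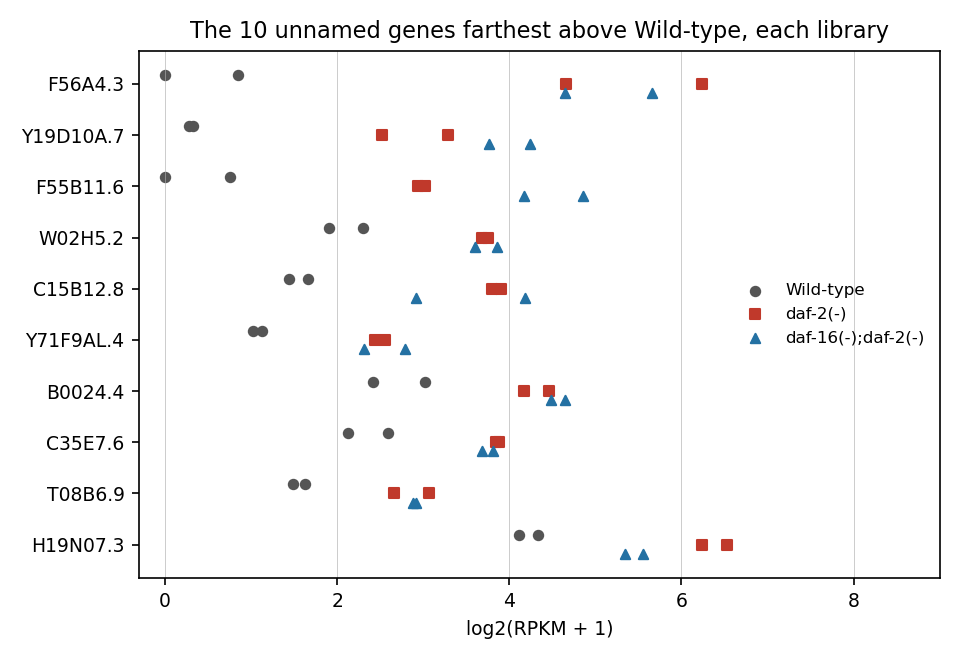
The plot of the 10 members farthest above WT gives log2(RPKM + 1) on the x axis for each library, with circles for WT, squares for daf-2(-) and triangles for the double mutant. Only for H19N07.3, B0024.4, C35E7.6, F55B11.6 and Y19D10A.7 do the mutant strains not overlap, with the double mutant higher in B0024.4, F55B11.6 and Y19D10A.7.

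Of the 3 members near 0 in WT, 2 lie on the same stretch of chromosome V. In the WBcel235 gene order this stretch holds a tandem duplication of 27 gene pairs, with Y19D10A.7 at the start of the first copy and its counterpart F56A4.9 at the start of the second. The annotated lengths of the pairs were identical in 21 of 27. Near-identical copies can share reads, but the sequences of the copies were not compared. The handling of reads that match several places is not given in the sources used here. The division of reads between 2 copies is therefore uncertain, so the sum over a pair is given beside each copy.

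A total of 5 members lie in the 56 genes of this stretch, of which 50 had a value. They are Y19D10A.7, Y19D10A.8 and Y19D10A.16 in the first copy, C01B4.6 in the second, and F56A4.3 just before the second. The gene just before the first copy is srbc-15, a named chemoreceptor gene that RefSeq lists as a pseudogene and that passed the same thresholds. It had 0.07 and 0 RPKM in WT and 12.3 and 11.5 in daf-2(-), with 10.9 and 10.7 in the double mutant. The 2 genes that precede the copies, srbc-15 and F56A4.3, and the 2 genes that open them were thus all below 1 RPKM in WT. This is not particular to them, since many other genes of the stretch were also below 1 RPKM in WT. Y19D10A.11, for example, had 0.48 and 0.3 RPKM in WT, and C01B4.8 had 0.84 and 0.88.

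F56A4.9, now irld-35, did not reach the RPKM minimum but was also near 0 in WT and higher in both mutant strains. Unlike its counterpart, it was lower in the double mutant than in daf-2(-). It had 0.14 and 0.11 RPKM in WT and 3.57 and 3.74 in daf-2(-), against 3.16 and 0.86 in the double mutant. Summed over Y19D10A.7 and F56A4.9, the lowest mutant value was 23.6 times the higher WT value. The next pair, the C-type lectin gene clec-209 (Y19D10A.9) and its counterpart F56A4.2, did not share this: clec-209 had 116 and 241 RPKM in WT and 311 and 436 in daf-2(-), while the double mutant had 453 and 560.

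Y19D10A.16 had 2.64 and 4.99 RPKM in WT and 9.27 and 13.5 in daf-2(-), with 9.05 and 10.2 in the double mutant. Its counterpart C01B4.6 had 2.19 and 5.14 RPKM in WT and 11.3 and 11 in daf-2(-), against 8.53 and 10.5 in the double mutant. Both are members, have the same exon length of 993 bases and had nearly the same values, so they may count the same reads. The lowest mutant sum of this pair was 1.74 times its higher WT sum.

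Y19D10A.8 had 2 and 1.1 RPKM in WT and 5.89 and 6.24 in daf-2(-), while the double mutant had 3.73 and 4.83, while its counterpart F56A4.10 had 1.55 and 2.18 in WT and 3.13 and 2.75 in daf-2(-), with 0.6 and 1.07 in the double mutant. Summed over this pair, the lowest mutant value was 1.22 times the higher WT value, below the ratio that the rule asks for. Whether the membership of Y19D10A.8 depends on the division of reads between the copies was not tested. Over the stretch, 10 pairs had a summed mutant mean of at least 1 RPKM. All 4 mutant sums were above both WT sums in 8 of these pairs, and the ratio of 1.5 was reached in 3.

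**Figure D3:**
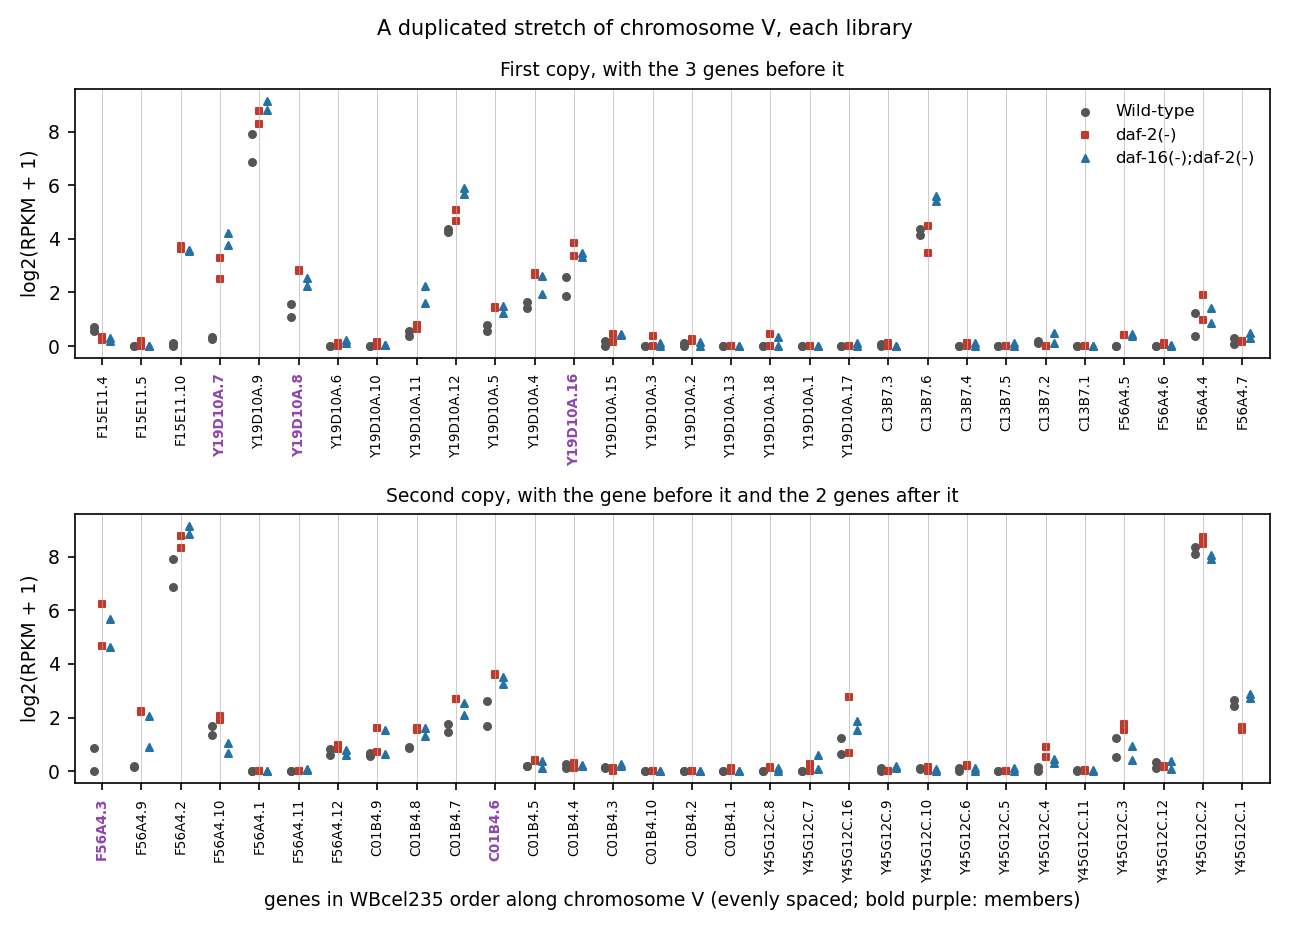
The plot of the duplicated stretch gives log2(RPKM + 1) in each library (y axis) for the genes in their order on chromosome V (x axis, evenly spaced), with circles for WT, squares for daf-2(-) and triangles for the double mutant. The upper panel holds the first copy and the lower panel the second, and members are in bold purple. F15E11.10, the sequence name of srbc-15, Y19D10A.7, F56A4.3 and F56A4.9 stand at the start of the copies with WT near 0, and most genes towards the ends are near 0 in all libraries.

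The members were not spread evenly over the chromosomes. Of the 75 matched members, 23 were on V, 22 on IV, 16 on I, 7 on III, 6 on II and 1 on X. For comparison, of 5289 unnamed genes with a chromosome and a lowest mutant RPKM of at least 3, 18.6% were on V, 17.6% on IV, 17.9% on I, 16.2% on III, 17.2% on II and 12.6% on X. The share of the members on IV was 29.3%, on V 30.7% and on X 1.33%. Without the 5 members of the duplicated stretch, 18 remained on V. These shares are a description, since neighbouring and duplicated genes are not independent.

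Members on the same clone were few. T08B6, Y59E9AL and ZK354 each held 2 members and W02H5 and Y19D10A each held 3. T08B6.9 and T08B6.4 had 2 genes between them, as had Y59E9AL.3 and Y59E9AL.6, and Y19D10A.7 and Y19D10A.8 had 1. T08B6.4 had 6.47 and 6.24 RPKM in WT and 11 and 12.3 in daf-2(-), against 12.5 and 12.9 in the double mutant. W02H5.1 had 3.17 and 4.2 RPKM in WT and 9.29 and 11.4 in daf-2(-), while the double mutant had 16.3 and 10.8. Both had mutant values above WT in every library, as the rule requires.

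Among the most abundant members, Y69H2.14 (col-42) encodes a collagen of the cuticle, the extracellular coat that is renewed at each moult. Its RPKM was 366 and 231 in WT and 2339 and 2305 in daf-2(-), with 551 and 613 in the double mutant. The daf-2(-) values were far above the others, and the lowest double mutant value was only 1.5 times the higher WT value. This gene was also the nearest to the exclusion, since its lower daf-2(-) value was 3.76 times its higher double mutant value. Without double mutant replicate 2 it was left out by the rule.

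K08D12.6, now epic-2, had 227 and 164 RPKM in WT and 590 and 534 in daf-2(-), against 430 and 402 in the double mutant. Y47D7A.15 had 48.3 and 33.2 RPKM in WT and 167 and 181 in daf-2(-), while the double mutant had 128 and 79. In both genes the strains formed 3 levels without overlap, with the double mutant in the middle.

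Y59E9AL.3, now nsph-4.2 of the nematode-specific peptide family, had 32.4 and 30.1 RPKM in WT and 65.4 and 68.7 in daf-2(-), with 60.7 and 62 in the double mutant. Y59E9AL.6, now cylc-1, had 24.5 and 13 RPKM in WT and 63.3 and 46.6 in daf-2(-), against 43.8 and 46.5 in the double mutant. F07A5.2, now spsp-1, had 25.3 and 26.2 RPKM in WT and 56.8 and 53.9 in daf-2(-), while the double mutant had 40.9 and 40.7. The lower daf-2(-) value was above the higher double mutant value in all 3, with only 46.56 against 46.45 in Y59E9AL.6.

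F53B6.4 had 26.2 and 28 RPKM in WT and 45.6 and 42.7 in daf-2(-), with 43.2 and 42.5 in the double mutant. Y69E1A.1 had 17.1 and 21.5 RPKM in WT and 35.2 and 34.6 in daf-2(-), against 35 and 34.2 in the double mutant. E03H12.5 had 18.9 and 10.6 RPKM in WT and 50.4 and 36.1 in daf-2(-), while the double mutant had 36.5 and 41.3. The mutant strains overlapped in these genes, at a level between 1.5 and 3 times that of WT.

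T23B3.5 had 14.6 and 8.49 RPKM in WT and 41.7 and 29.6 in daf-2(-), with 29.2 and 31.2 in the double mutant. C33G8.3, now drd-10, named for lower expression under dietary restriction, had 9.98 and 7.76 RPKM in WT and 43.6 and 40.7 in daf-2(-), against 17.7 and 23.4 in the double mutant. The mutant strains overlapped for T23B3.5 and not for C33G8.3.

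Of the 15 most abundant members, 2 had higher values in the double mutant than in daf-2(-) without overlap. Y65B4A.6, a paralog of the eIF4A helicases and now named eif-4A3 after the exon junction complex subunit, had 17.1 and 17.9 RPKM in WT and 28.3 and 27.5 in daf-2(-), while the double mutant had 46.6 and 50.3. W07G4.3, now scyl-1 after the SCY1-like pseudokinases, had 11.4 and 12.4 RPKM in WT and 28 and 23.9 in daf-2(-), with 38.2 and 32.3 in the double mutant. In both, the 3 strains did not overlap.

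**Figure D4:**
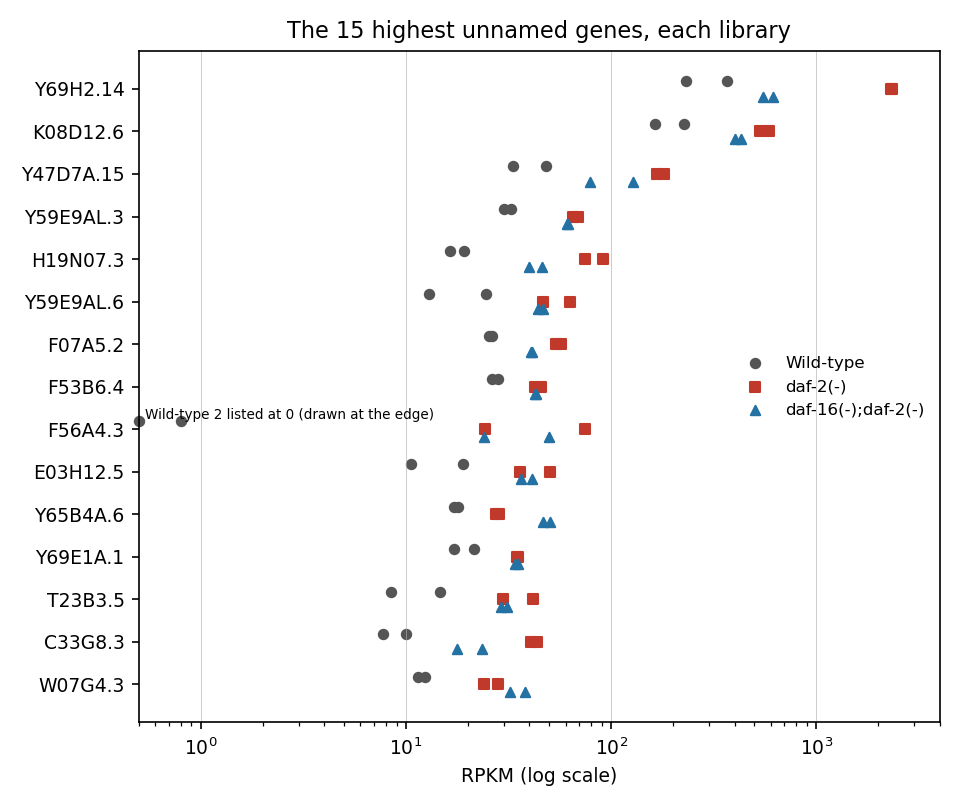
The plot of the 15 most abundant members gives the RPKM (x axis, log scale) in each library, with circles for WT, squares for daf-2(-) and triangles for the double mutant. All mutant points lie to the right of the WT points, as the rule requires, and the widest gap between the mutant strains is that of Y69H2.14.

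Several of the current symbols belong to sperm, which carries its own set of proteins and small RNA factors. The 5 members with such a role, picked after their values were seen, are alg-3, an Argonaute that acts with small RNAs in spermatogenesis, pei-1, a component of sperm granules, spe-55, named for a defect in spermatogenesis, and cylc-1 and cylc-2, named after the cylicins of the mammalian sperm head. T22B3.2 (alg-3) had 3.37 and 3.36 RPKM in WT and 5.99 and 5.18 in daf-2(-), against 6.67 and 5.58 in the double mutant. F27C8.5 (pei-1) had 2.71 and 2.22 RPKM in WT and 4.63 and 5.45 in daf-2(-), while the double mutant had 6.12 and 4.55. C09B9.4 (spe-55) had 2.84 and 2.67 RPKM in WT and 6.17 and 5.77 in daf-2(-), with 6.53 and 5.44 in the double mutant.

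C41G7.6 (cylc-2) had 3.97 and 1.34 RPKM in WT and 16 and 10.2 in daf-2(-), against 6.75 and 14.2 in the double mutant. Its replicates differed more than those of alg-3, pei-1 and spe-55, and its lowest mutant value was 1.7 times its higher WT value. The ratio of the daf-2(-) mean to the WT mean ran from 1.66 in alg-3 to 4.94 in cylc-2 over these 5 genes, and that of the double mutant mean from 1.82 to 3.94. The 5 genes had a median log2 difference between the double mutant and daf-2(-) of 0, and the smallest unadjusted p among them in limma was 0.403 (cylc-1). The rule limits how far the mutant strains can differ, and members without a symbol could not be judged for a role in sperm. These values are therefore a description of the 5 picked genes.

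Markers of sperm moved in the same direction in part. In a list of 35 sperm genes, mainly major sperm protein genes, the summed RPKM was 2192 and 2491 in WT and 3886 and 2546 in daf-2(-), while the double mutant had 2151 and 3588. Both daf-2(-) sums were above both WT sums, narrowly in replicate 2, and the double mutant overlapped both strains. The lower sum of each mutant strain was in daf-2(-) replicate 2 and double mutant replicate 1, the libraries that stood apart together. No gene of the list was at 0 in all libraries. In limma with Benjamini-Hochberg adjustment, 4 of the 35 passed the thresholds with daf-2(-) above WT (msp-55, ssq-1, ssq-2 and ssq-3) against 4.54% of all entries, and 1 was called higher in the double mutant (ssq-2), against 0.116%. At an unadjusted p of at most 0.05, 4 genes passed in each mutant strain. Without WT replicate 1, WT replicate 2 or daf-2(-) replicate 2, limma called 0 genes in daf-2(-) after adjustment and 4, 3 and 4 without it, and 1 gene without daf-2(-) replicate 1. With any library left out 0 were called in the double mutant after adjustment and 4 without it, and median-ratio scaling gave 9 in daf-2(-). The count for the double mutant was 4 when entries under a mean RPKM of 1 were left out and 0 with quantile normalization, without the trend or with the replicate block, each with 4 at the unadjusted p. The median log2 difference from WT over the list was 0.43 for daf-2(-) and 0.22 for the double mutant, beside medians of -0.28 and 0.10 over the entries with a mean RPKM of at least 1. The sperm list holds only hyphenated names, so none of the 77 members could be in it. Of its genes, 3 passed the thresholds of the rule (ssq-1, ssq-2 and ssq-3). None of the members is in the other 10 lists, most of which also hold only hyphenated names. The part of sperm content in the levels of the members was not tested.

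The other marker lists gave different pictures. In a list of 20 oocyte and germline genes, daf-2(-) had 13 called below WT, against 7.15% of all entries, and all 20 were called higher in the double mutant than in daf-2(-), against 15.5%, with medians of -1.26 and 1.99 on the log2 scale. Of 12 genes of larval moult and cuticle, 7 were called lower in daf-2(-) than in WT and 6 higher in the double mutant than in daf-2(-), beside the same 7.15% and 15.5% of all entries. Of 5 dauer genes, 3 were called above WT in daf-2(-) and 4 lower in the double mutant than in daf-2(-), beside 4.54% and 5.46% of all entries. Of 42 genes of the intracellular pathogen response with a value, 11 were called above WT in daf-2(-) and 11 lower in the double mutant than in daf-2(-). The shares of all entries were again 4.54% and 5.46%. Of 11 early embryo genes with a value, 4 were called below WT in daf-2(-), beside 7.15% of all entries. In the double mutant, 5 of these 11 were called higher than in daf-2(-), as were 5 of 13 infection response genes, beside 15.5%. In the infection list, 2 were lower in that contrast, and in daf-2(-) 2 were above and 1 below WT. The lists of yolk, intestine, muscle and neuron had at most 1 gene called in each comparison and direction. The part of these lists in the levels of the members was not tested.

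Whether the members depend on daf-16 is the question that the contrast between the 2 mutant strains addresses. The rule treats the 4 mutant libraries alike, and its exclusion removed 0 genes, so this contrast did not choose members. The demand for a minimum in all 4 libraries still limits how far the strains can differ, and a share of members called is given here as a description. In limma on log2(RPKM + 1), with Benjamini-Hochberg adjusted p-values over all 20661 entries and a fold change of at least 2, 2 of the 77 members were called higher and 3 lower in the double mutant than in daf-2(-). Over all entries 15.5% were called higher and 5.46% lower. The remaining 72 members were not called, which does not show that their levels were equal.

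F55B11.6 was higher in the double mutant by 1.53 on the log2 scale (SE 0.35, limma adjusted p = 0.0138), with values of 28 and 17 RPKM against 6.67 and 7.15. Y19D10A.7 was higher by 1.10 (SE 0.32, limma adjusted p = 0.0364), and F56A4.9, with which it may share reads, had 3.16 and 0.86 RPKM in the double mutant against 3.57 and 3.74. Summed over Y19D10A.7 and F56A4.9, the RPKM was 12.3 and 8.48 in daf-2(-) against 15.7 and 18.7 in the double mutant. This gap is smaller than in Y19D10A.7 alone, but the sums were not tested. How far the call for Y19D10A.7 depends on the division of reads was therefore not tested. The call was kept in 6 of the 15 other settings. The third member near 0 in WT, F56A4.3, had a difference of -0.29 (SE 0.58, limma adjusted p = 0.742).

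Y69H2.14 was lower in the double mutant by 2.0 on the log2 scale (SE 0.22, adjusted p = 0.00177 in limma), the largest change among the members. Y47H10A.5, at -1.58 (SE 0.23, limma adjusted p = 0.00286), had 2.95 and 4.08 RPKM in WT and 29 and 23.5 in daf-2(-), with 8.58 and 7.62 in the double mutant. The log2 difference of C33G8.3 was -1.02 (SE 0.20, adjusted p = 0.00858 in limma). In these 3 genes most of the increase over WT was absent from the double mutant. Both its values were at least 1.5 times the higher WT value, as the rule requires of every member.

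The calls depended on single libraries and on the scaling. Without daf-2(-) replicate 2, limma called 0 of the members in either direction after adjustment, and 1 higher and 4 lower at an unadjusted p of at most 0.05. Without double mutant replicate 1, Y47H10A.5 alone stayed called, with 3 higher and 3 lower at the unadjusted p. Without daf-2(-) replicate 1, F55B11.6 and C33G8.3 lost their calls, and without either WT replicate or without double mutant replicate 2, Y19D10A.7 lost its call. The log2 fold changes themselves stayed between -2.07 and -1.92 for Y69H2.14, -1.72 and -1.43 for Y47H10A.5, -1.21 and -0.82 for C33G8.3, 1.19 and 1.87 for F55B11.6, and 0.71 and 1.48 for Y19D10A.7 when each library was left out in turn. That of F56A4.3 ran from -1.08 to 0.50.

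Over all members the log2 difference between the double mutant and daf-2(-) had a median of -0.06, with quartiles of -0.32 and 0.12, and 64 of 77 lay within 0.5 of 0. The entries with a mean RPKM of at least 1 had a median of 0.34. The members were chosen as raised above WT in each mutant strain on the deposited scale, where the medians of these entries against WT were -0.28 for daf-2(-) and 0.10 for the double mutant, so a lower median than that of the entries is in large part set by the rule, as is the closeness of the 2 mutant levels. Both daf-2(-) values were above both double mutant values in 25 members, 32.5%, against 19.9% of all entries, the reverse was true in 17 members, 22.1%, against 43.3%, and the strains overlapped in 35.

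These counts moved with the scaling. After median-ratio scaling, which sets the median of the entries near 0 (-0.02), the median of the members was -0.44, and both daf-2(-) values were above both double mutant values in 62 members, 80.5%, against 32% of all entries. The reverse then held in 4 members, 5.19%, against 31.4%. Quantile normalization gave a median of -0.41 for the members and 0.07 for the entries. The median-ratio factors were 0.92 and 0.78 for daf-2(-) against 1.10 and 1.18 for the double mutant. They divide every entry of a library alike, so the medians of the members and of all entries both moved down. The members were chosen on the unscaled values, so the gap to all entries is in large part set by the rule, and nothing is read from it.

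**Figure D5:**
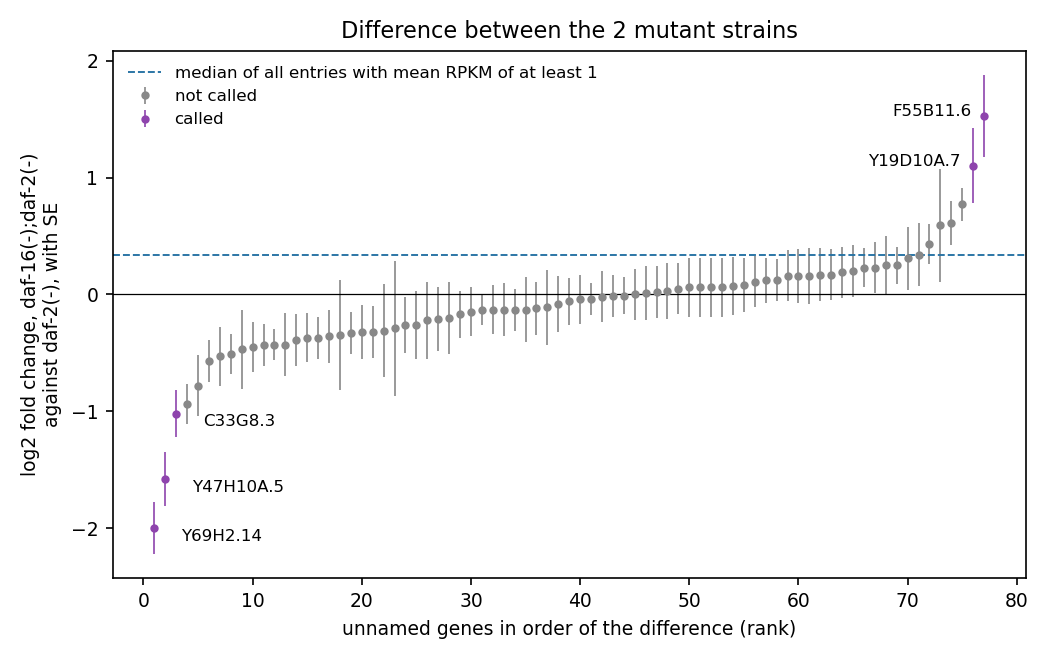
The plot of the difference between the mutant strains gives the log2 fold change of the double mutant against daf-2(-) with its SE (y axis) for the 77 members in order of the difference (x axis, rank). The 5 called genes are purple, and the dashed line at 0.34 marks the median of the entries with a mean RPKM of at least 1. Of the 77 members, 64 lie within 0.5 of 0.

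A further 5 members had an adjusted p of at most 0.05 in this contrast but less than a 2-fold change. The log2 difference was -0.94 in H19N07.3 (SE 0.17, adjusted p = 0.00609 in limma), -0.57 in C30G7.3 (SE 0.18, adjusted p = 0.0468) and -0.43 in F07A5.2 (SE 0.13, adjusted p = 0.0424). Y65B4A.6 had 0.77 (SE 0.14, limma adjusted p = 0.00613) and F48E8.4 had 0.61 (SE 0.19, limma adjusted p = 0.0429), which shrank to 0.36 and 0.21 after median-ratio scaling and to 0.32 and 0.11 after quantile normalization. F48E8.4 had 5.2 and 5.31 RPKM in WT and 14.1 and 11.7 in daf-2(-), against 21.1 and 19.3 in the double mutant, so that all 3 strains were apart.

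The replicates of the members were close. The median size of their log2 difference was 0.17 in WT and 0.14 in each mutant strain. Replicates at least 2-fold apart were found for 5 members in WT, for 1 in daf-2(-) and for 4 of the double mutant. Y49G5A.1 was such a case, with 2.21 and 3.77 RPKM in WT and 8.77 and 6.06 in daf-2(-), while the double mutant had 6.63 and 19.6. By the estimated depth and the WBcel235 exon lengths of 75 members, the lowest mutant value rested on a median of about 120 reads, and on fewer than 50 in 11 members.

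The kit does not mark strand, so reads from overlapping genes cannot be told apart. Exons of 15 members overlapped those of another gene in WBcel235, and the overlap was at least 20% of the exon length in 1, F17C8.7, with 25.7% shared with F17C8.9. F17C8.7 had 8.61 and 8.22 RPKM in WT and 13 and 14.2 in daf-2(-), with 14.4 and 15.4 in the double mutant.

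Many members lay close to the thresholds. The lowest mutant value was under 2 times the higher WT value in 63 of 77 members, and between 1.5 and 1.6 times in 20. Just inside the ratio were T22C1.8 at 1.502, Y69H2.14 at 1.504, C38C3.3 at 1.51, F53B6.4 at 1.514 and F17C8.7 at 1.515, and just outside were ZK945.6 at 1.495, T23F6.3 at 1.493, F49C12.15 at 1.488, F40G9.17 at 1.483 and F47D12.7 at 1.48. The lowest mutant values just inside the RPKM minimum were 3.26 in R08A2.2, 3.6 in Y37D8A.5, 3.71 in T09B4.6, 3.73 in Y19D10A.8 and 3.82 in Y49E10.10. Just outside it were F14D7.10 at 2.96, F35E12.4 at 2.94, R102.10 and K07A3.3 at 2.89, and K08A2.2 at 2.83. After Y69H2.14, the members nearest to the exclusion ratio of 4 were Y47H10A.5 at 2.74, C33G8.3 at 1.74, H19N07.3 at 1.63 and C30G7.3 at 1.43.

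The 43 named genes that passed the same thresholds included 11 cuticle collagen genes named col, 4 sperm-specific genes named ssq and 3 heat shock genes, and the 5 highest were col-181, col-106, col-101, col-103 and col-142. Their mean RPKM in WT, daf-2(-) and the double mutant was 1053, 3976 and 1977 for col-181 and 187, 1726 and 428.5 for col-103. Of the 43, 5 were called lower in the double mutant than in daf-2(-) by limma after adjustment (col-103, col-142, col-176, col-181 and hsp-70), beside 3 of the 77 unnamed genes and 5.46% of all entries. Y69H2.14 is the only member with a col symbol, but 57 members have no symbol and their proteins were not examined. Whether the 2 sets differ was not tested.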

How the data were processed

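RNA-seq of 6 libraries was used, 2 of each strain. The authors aligned the reads to WS230 in CLC Genomics Workbench and deposited RPKM per gene with default parameters. CASAVA 1.8.2 is named per the labels. The values of daf-2(-), deposited with commas in the large numbers, are in the same unit of RPKM. The 3 tables were joined by name with an absent gene taken as 0, and 6 names on more than 1 line were left out. Differences were tested with limma 3.58.1 in R 4.3.3 on log2(RPKM + 1), a scale that understates changes of low genes, with a trend and 1 fit over the 6 libraries, in place of the count-based test of the study. Calls required a 2-fold change together with a Benjamini-Hochberg adjusted p up to 0.05. The script was tested on simulated data. The members and the 11 gene lists were chosen with earlier results of these data known. Members are named if they are among the 15 highest in the mutants, the 10 farthest above WT, called between the mutants, nearest to a threshold or next to another member, and other names were chosen after their values were seen. Names, gene order and exon lengths come from WBcel235 (96.7% of entries matched), and no coordinates were combined. Depth was estimated from the steps of low RPKM values for genes of 250 to 1200 exon bases. Alternatives were other pseudocounts (0.1 and 0.5 RPKM), scalings, filters and designs and each library left out.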

Additional observations from a re-analysis of the deposited data

How the results depend on the processing

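With 2 libraries per strain, calls near the thresholds are uncertain. The number of members found was 14 with a ratio of at least 2, 121 with an RPKM minimum of 1 and 32 with a minimum of 10, and ran from 88 to 172 when each library was left out. It was 81 after median-ratio scaling and 87 after quantile normalization, of which 57 and 60 were among the 77. Members higher in the double mutant than in daf-2(-) numbered 1 with a pseudocount of 0.1 RPKM, with median-ratio scaling and in a fit on the 4 mutant libraries, 0 with quantile normalization (1 at an unadjusted p up to 0.05) and from 0 to 1 without single libraries. Members lower numbered 5 with either scaling and from 0 to 4 without single libraries. A pseudocount of 0.5 RPKM, a mean RPKM of at least 1, limma without the trend and unadjusted p-values left the counts at 2 and 3. The labels give only replicate numbers, and the replicate differences correlated by 0.11, 0.16 and -0.16 between the strains. With the replicate number as a block, 1 member was higher and 3 were lower in the double mutant. None of the 5 called members changed direction in the 15 alternatives. Depth limits members with few reads.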
